A study of Mus musculus with 18 samples.

Results

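RNA was sequenced from mouse rES, the cells labelled as naive stem cells that stand at the end of a conversion from primed to naive pluripotency, and from mouse ESC, embryonic stem cells that serve as the standard for the naive state. The question was what remained different, and what was new, in the converted cells when they were set against ESC. All 3 rES libraries and all 3 ESC libraries were chosen by their labels, 6 of the 18 libraries of the series. The other 12 are 3 each of EpiSC (labelled primed stem cells, the start of the conversion) and of D3, D5 and D8 (labelled transient). They show where a gene stood on the way. They also share the fit, so they enter the filter on low counts, the scaling and the estimate of spread. Every group is labelled as coming from mouse embryo. The labels name no strain, sex, line, passage or medium, and leave unstated whether rES and ESC share a genetic background and whether replicates came from separate cultures. P-values therefore measure only the spread between libraries within the 6 groups, which may be technical.

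Mouse naive cells resemble the epiblast of the blastocyst before implantation, and primed cells resemble the epiblast after it. Naive cells are held by LIF acting through STAT3, by WNT signalling through beta-catenin and by low activity of the FGF-ERK pathway, and their DNA can carry little methylation. Primed cells depend on FGF and on activin or Nodal signals, use glycolysis heavily and carry more DNA methylation. Conversion asks cells to reopen genes that implantation has closed, such as Zfp42, Dppa3 and many germline genes.

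Total RNA was depleted of ribosomal RNA before sequencing. The deposited counts summed to 61.4, 58.4 and 63.5 M in rES libraries 1 to 3 and to 59.0, 60.1 and 70.8 M in ESC libraries 1 to 3. Levels are given as CPM (counts per 1 M counts), scaled between libraries, and errors are SDs over 3 libraries. A count of 12 deposited counts, taken as the floor of detection, came to 0.191 CPM in rES and 0.189 CPM in ESC. Of 25239 gene symbols, 17545 passed the filter on low counts and were tested with edgeR's quasi-likelihood test. A gene is said to have risen, fallen or changed, or to be called, where its Benjamini-Hochberg adjusted p over all genes tested was under 0.05. Log2 differences are rES minus ESC, with an approximate standard error.

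The converted cells lay close to ESC and far from their origin, but many genes differed. Over the genes tested, the 9 rES and ESC library pairs correlated at 0.9648 to 0.9665 on the log2 CPM scale, below the 0.982 to 0.9829 among rES libraries and the 0.9811 to 0.9824 among ESC libraries. The same measure was 0.8192 to 0.8557 between rES and D8 and 0.8119 to 0.8159 between rES and EpiSC. These are correlations across genes, which are not independent replicates. Of the 17545 genes, 5877 (33.5%) were called, 2736 higher (15.6%) and 3141 lower (17.9%) in rES. A difference of at least 2-fold was reached by 776 called genes that were higher (4.42%) and 730 that were lower (4.16%). All 3 rES libraries lay above all 3 ESC libraries for 4629 genes (26.4%) and below them for 4792 (27.3%). With RLE in place of TMM scaling the calls were 3103 higher and 2835 lower, so which direction held more genes turned with the scaling.

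**Figure D1:**
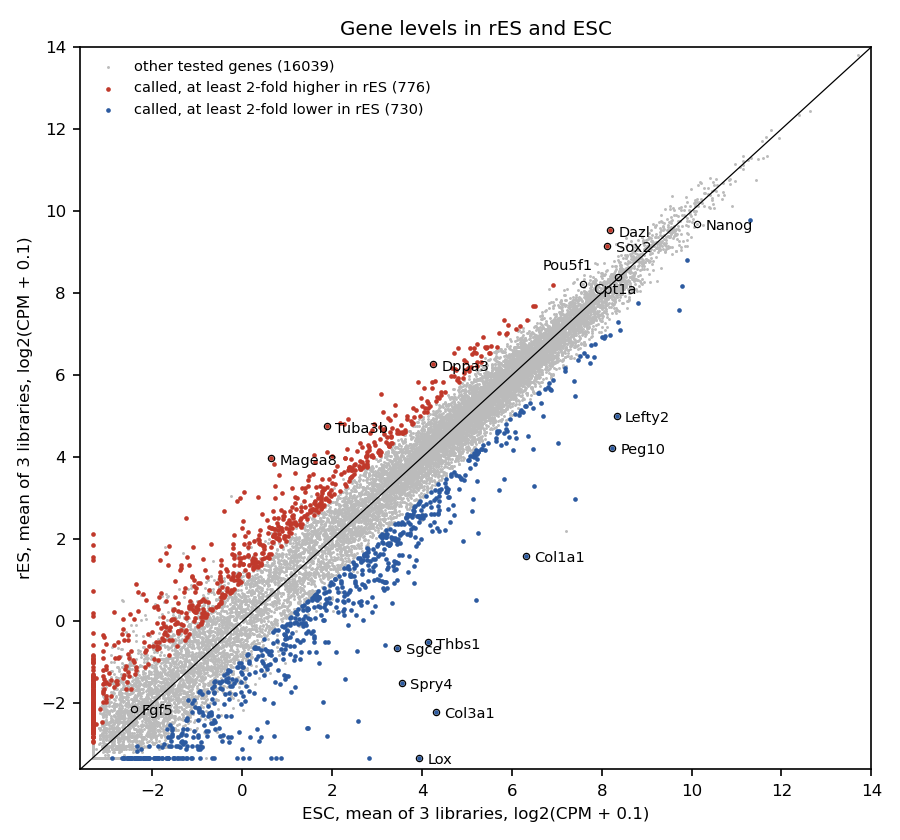
Mean level of each tested gene in rES (vertical) against ESC (horizontal), each the mean of 3 libraries as log2(CPM + 0.1), with the diagonal of equal level. The 776 genes called and at least 2-fold higher in rES lie above the diagonal and the 730 at least 2-fold lower lie below it. Lox, with no count in rES, sits on the lower edge.

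The genes of 3 chromosomes were lower in rES as a block. The median log2 difference was -0.28 over 871 genes of chromosome 6, -0.42 over 896 genes of chromosome 8 and -0.33 over 473 genes of chromosome 18, and lay between -0.03 and 0.12 on each of the 16 other autosomes. These 3 chromosomes held 12.8% of the genes tested and 29.2% of the genes called lower. Of their genes, 917 of 2240 were called lower (40.9%), against 14.5% on the other autosomes. In windows of 20 Mb the medians ran from -0.50 to -0.19 over the 8 windows of chromosome 6, from -0.50 to -0.33 over the 7 of chromosome 8 and from -0.41 to -0.25 over the 5 of chromosome 18. Set against the EpiSC mean and the other autosomes, chromosome 8 stood at -0.01 to 0.01 in the rES libraries and at 0.42 to 0.46 in the ESC libraries. Chromosome 6 stood at 0.06 to 0.07 in rES and 0.32 to 0.33 in ESC, and chromosome 18 at 0.03 to 0.06 in rES and 0.29 to 0.35 in ESC. For each of these chromosomes the 3 ESC libraries lay above all 15 libraries of the other groups. Copy number was not measured, and its part in these medians was not tested. Where this scaling changes a call of a gene named from one of these chromosomes, or moves a called difference by over 1.5 times, the difference is also given with libraries scaled within the chromosome, an alternative chosen after the medians were seen.

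**Figure D2:**
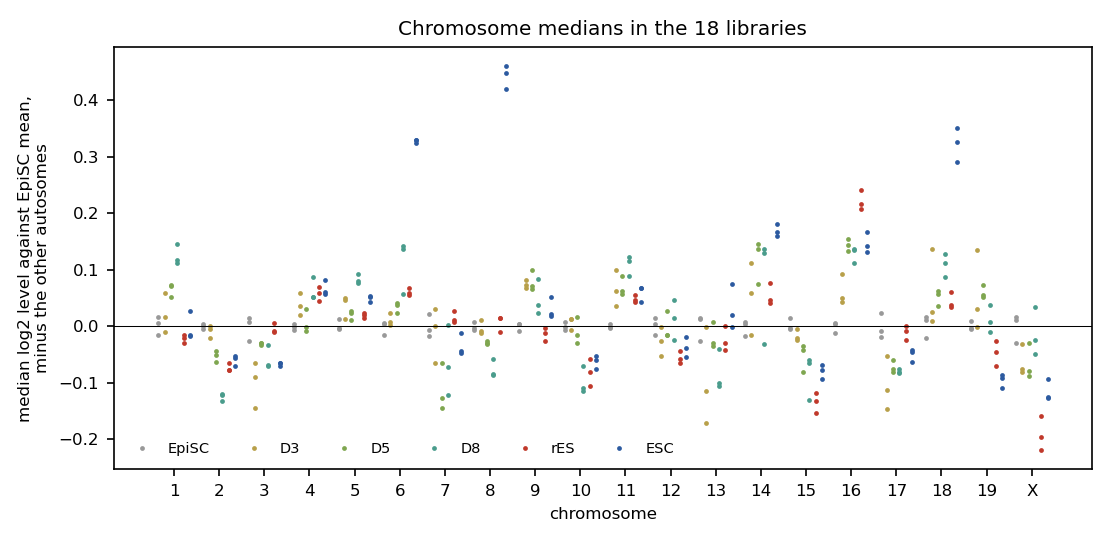
Median log2 level of the genes of each autosome and of X in the 18 libraries, relative to the EpiSC mean and to the other autosomes. The Y chromosome is not drawn. There is one point per library, and the groups are in the order EpiSC, D3, D5, D8, rES and ESC. On chromosomes 6, 8 and 18 the 3 ESC points stand at 0.29 to 0.46, above every point of the other groups.

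All naive factors and markers had counts in rES, and their summed levels overlapped between the groups. Of 22 on the list, all of them tested, 4 were called higher (15.6% of all genes were), 2 were called lower (17.9% of all genes were) and 16 were not called. The shares called were thus 18.2% and 9.09%. Overlap of libraries gave another picture. All rES libraries lay above all ESC libraries for 9 of the 22 genes and below them for another 9. Of all genes, 26.4% and 27.3% did. With rES and ESC fitted alone, 9 were called higher and 8 lower, where 25.9% and 25.8% of all genes in that fit were. Leaving out 1 library gave 3 called higher and 0 to 1 lower by edgeR, the fewest lower without rES library 3. The median log2 difference was -0.05, against 0.00 over all genes tested. The list summed to 7632 to 7697 CPM in rES and 7579.9 to 7706 CPM in ESC. The sum was 1762 to 3194 CPM at D8 and 179 to 192 CPM in EpiSC.

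Pou5f1, the POU factor shared by naive and primed cells, had 337, 331 and 347 CPM in rES and 327, 328 and 332 CPM in ESC (log2 difference 0.04 ± 0.35, adjusted p = 0.975). Klf4, a zinc finger factor of the naive network, averaged 291 ± 12.4 CPM in rES and 311 ± 25.3 CPM in ESC (log2 difference -0.09 ± 0.17, adjusted p = 0.735). Neither was called. Esrrb, an orphan nuclear receptor, averaged 671 ± 15.1 CPM in rES and 782 ± 27.6 CPM in ESC and was not called at adjusted p = 0.526, although its libraries did not overlap. With rES and ESC fitted alone it passed at adjusted p = 0.000535. Zfp42, the Rex1 marker of naive cells, lies on chromosome 8 and averaged 265 ± 3.99 CPM in rES and 318 ± 4.32 CPM in ESC (adjusted p = 0.314). Its log2 difference of -0.26 turned to 0.18 when scaled within the chromosome, and it passed at adjusted p = 0.000166 when the groups were fitted alone.

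Dppa3, an egg and germ cell protein that protects DNA methylation marks in the early embryo, rose most among the naive markers. It had 76.0, 74.7 and 79.2 CPM in rES and 19.06, 20.5 and 17.1 CPM in ESC (log2 difference 2.02 ± 0.30, adjusted p = 4.97e-05). All rES libraries stood far above all ESC libraries. Sox15, an HMG box factor, averaged 13.4 ± 1.21 CPM in rES and 5.17 ± 0.622 CPM in ESC (log2 difference 1.38 ± 0.22). Gbx2, a homeobox factor that supports self-renewal downstream of STAT3, averaged 61.1 ± 0.817 CPM in rES and 29.8 ± 1.80 CPM in ESC (log2 difference 1.04 ± 0.26). Pecam1, a surface adhesion molecule of naive cells, averaged 250.2 ± 4.96 CPM in rES and 172 ± 4.29 CPM in ESC at adjusted p = 0.0455, which became 0.0515 without the filter on low counts. The Pecam1 call was also lost whichever 1 library was left out (adjusted p = 0.0841 to 0.113). The called falls were Nanog and Bmp4. Nanog, the homeobox factor of the naive core, had 825, 829 and 835 CPM in rES and 1113, 1090.5 and 1139.9 CPM in ESC (log2 difference -0.43 ± 0.15, adjusted p = 0.0391). That call rests on the scaling: Nanog lies on chromosome 6, and scaled within the chromosome its difference was -0.11 at adjusted p = 0.613. It was also lost with RLE scaling (adjusted p = 0.0553). Bmp4, a ligand counted here with the naive markers, averaged 2.09 ± 0.499 CPM in rES and 3.53 ± 0.260 CPM in ESC.

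Most primed markers were below their EpiSC level in both groups, 19 of 21 tested, the exceptions being Lefty2 and Nodal. Of all 17545 genes tested, 8156 were below it in both groups. Of the list, 5 were called higher and 3 lower (23.8% and 14.3%, beside 15.6% and 17.9% of all genes), and their sum was 559.5 to 592 CPM in rES and 763 to 864 CPM in ESC, beside 3322 to 3571 CPM in EpiSC. Fgf5, the growth factor most used to mark primed cells, had 0.0953, 0.132 and 0.153 CPM in rES, under the floor in every library, and 0, 0.0491 and 0.212 CPM in ESC, where EpiSC averaged 64.2 CPM. Otx2, a homeobox factor of the epiblast after implantation, averaged 2.99 ± 0.0483 CPM in rES and 4.92 ± 1.18 CPM in ESC and was not called at adjusted p = 0.0914, but passed with counts divided by 4 (adjusted p = 0.0261). The 5 that rose were Lef1, Pou3f1, Sox3, Dnmt3b and Sox11.

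Lef1, the HMG box factor that carries beta-catenin to WNT targets, had 28.3, 26.6 and 28.7 CPM in rES and 8.66, 7.63 and 6.26 CPM in ESC (log2 difference 1.89 ± 0.13, adjusted p = 1.23e-08). Pou3f1, the POU factor Oct6, averaged 4.29 ± 0.399 CPM in rES and 1.57 ± 0.245 CPM in ESC (log2 difference 1.46 ± 0.19, adjusted p = 1.35e-05), where EpiSC had 195 CPM. Sox3, an HMG box factor related to Sox2, averaged 12.9 ± 1.35 CPM in rES and 5.55 ± 0.706 CPM in ESC (log2 difference 1.21 ± 0.16). Dnmt3b, a de novo DNA methyltransferase, had 143, 134 and 138 CPM in rES and 69.2, 71.9 and 73.4 CPM in ESC (log2 difference 0.95 ± 0.09, adjusted p = 3.45e-07), where EpiSC had 1248 CPM. For each of these 4 genes the rES libraries lay above all ESC libraries. Both groups lay below the EpiSC mean for all 4, which was 112 CPM for Lef1 and 76.6 CPM for Sox3.

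The falls on the primed list were in the Nodal antagonists and Sall2. Lefty2, a secreted antagonist of Nodal, had 34.6, 32.9 and 29.0 CPM in rES and 273, 328 and 366 CPM in ESC (log2 difference -3.33 ± 0.30, adjusted p = 2.35e-07). Its relative Lefty1 averaged 22.5 ± 2.88 CPM in rES and 61.4 ± 4.04 CPM in ESC (log2 difference -1.45 ± 0.27, adjusted p = 0.000411). Although both are listed as primed markers, Lefty2 averaged only 4.04 CPM in EpiSC, and Lefty1 averaged 73.9 CPM there. Nodal itself averaged 73.7 ± 1.77 CPM in rES and 74.3 ± 2.79 CPM in ESC and was not called, where EpiSC had 23.6 CPM.

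Among 14 factors shared by naive and primed cells, 3 were called higher and 5 lower (21.4% and 35.7%, beside 15.6% and 17.9% of all genes). Sox2, the partner of Pou5f1, had 577, 572 and 567 CPM in rES and 301, 291 and 246 CPM in ESC (log2 difference 1.03 ± 0.27, adjusted p = 0.00628), while Pou5f1 was not called. Lin28a, an RNA-binding protein that blocks maturation of let-7 microRNAs, had 10.2, 10.3 and 11.6 CPM in rES and 36.7, 33.9 and 41.7 CPM in ESC (log2 difference -1.81 ± 0.10, adjusted p = 1.32e-09). Its paralog Lin28b averaged 7.37 ± 0.540 CPM in rES and 17.9 ± 3.21 CPM in ESC (log2 difference -1.28 ± 0.15). L1td1, an RNA-binding protein derived from a LINE element, fell by 0.73 ± 0.07 on the log2 scale. EpiSC had 765 CPM of Lin28a and 168 CPM of Lin28b, so for both genes rES stood further below EpiSC than ESC did.

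**Figure D3:**
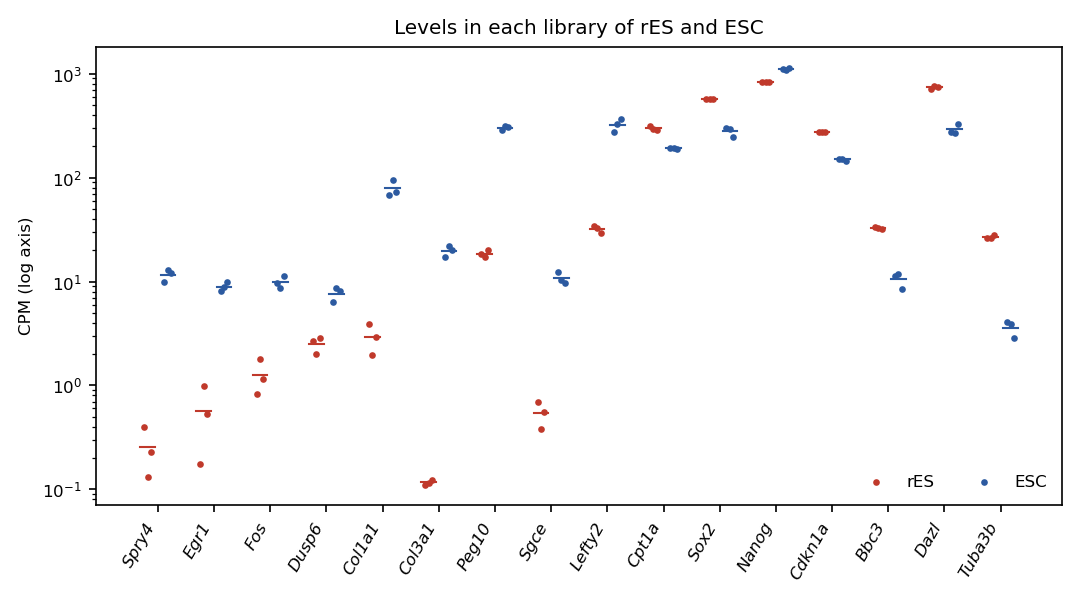
Level in each library of 16 genes, in CPM on a log axis, with rES left of ESC for each gene, points for the 3 libraries and a line at their mean. The rES and ESC points do not overlap for any of these genes: Spry4, Col3a1 and Peg10 are far lower in rES, and Sox2, Cdkn1a, Dazl and Tuba3b are higher.

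Genes induced by FGF-ERK signalling were mostly lower in rES. Of 17 tested, 10 were called lower and 2 higher (58.8% and 11.8%, beside 17.9% and 15.6% of all genes), and 5 were not called. The median log2 difference was -1.37. Summed, the list had 898 to 944 CPM in rES and 948 to 991 CPM in ESC. Spry4, a feedback inhibitor of receptor tyrosine kinases, had 0.397, 0.132 and 0.230 CPM in rES and 10.01, 12.8 and 12.1 CPM in ESC (log2 difference -5.51 ± 0.22, adjusted p = 2.27e-11). The rES values lie near the floor, as did D8 at 0.278 CPM, while EpiSC averaged 72.4 CPM. Egr1, an immediate early zinc finger factor, had 0.175, 0.990 and 0.536 CPM in rES and 8.16, 8.81 and 9.89 CPM in ESC (log2 difference -3.99 ± 0.31, adjusted p = 4.14e-08). Fos, a subunit of AP-1, averaged 1.26 ± 0.504 CPM in rES and 9.92 ± 1.42 CPM in ESC (log2 difference -2.98 ± 0.26), and Myc, a growth factor-induced transcription factor, averaged 2.31 ± 0.291 CPM in rES and 10.6 ± 0.621 CPM in ESC (log2 difference -2.19 ± 0.11). No rES library reached an ESC library for these 4 genes.

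Of the ERK phosphatases on that list, Dusp5 and Dusp6 fell, with log2 differences of -1.68 ± 0.11 and -1.61 ± 0.17. Dusp6 averaged 2.50 ± 0.444 CPM in rES and 7.66 ± 1.23 CPM in ESC. Dusp4, from the same family, averaged 0.877 CPM in rES and 1.01 CPM in ESC and was not called. Etv5, an ETS factor, and Spry1, a feedback inhibitor, went the other way and rose by 0.49 ± 0.15 and 0.33 ± 0.11, while the ETS factor Etv4 fell by 1.37 ± 0.24. Spred1, another inhibitor of the pathway, averaged 73.7 CPM in rES and 73.8 CPM in ESC and was not called. Leaving out 1 library gave 0 to 2 called higher, the fewest without ESC library 1. With libraries scaled within chromosomes 6, 8 and 18 the list again had 10 called lower and 2 higher.

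Jun, an AP-1 subunit outside that list and among the 12 largest falls of the whole comparison, had 4.12, 3.43 and 5.45 CPM in rES and 40.0, 39.0 and 34.0 CPM in ESC (log2 difference -3.12 ± 0.14, adjusted p = 9.77e-11). Junb, an AP-1 subunit from the LIF-STAT3 list, lies on chromosome 8 and averaged 17.3 ± 1.09 CPM in rES and 37.9 ± 6.22 CPM in ESC (log2 difference -1.14 ± 0.18, or -0.69 scaled within the chromosome).

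WNT targets went the other way. Of 16 tested, 10 were called higher and 2 lower (62.5% and 12.5%, beside 15.6% and 17.9% of all genes). The median log2 difference was 0.69. Sp5, a zinc finger factor that beta-catenin turns on, had 113, 121 and 132 CPM in rES and 40.9, 43.5 and 38.6 CPM in ESC (log2 difference 1.57 ± 0.30, adjusted p = 0.000583). Axin2, the feedback scaffold most used to read the pathway, had 98.3, 92.6 and 96.6 CPM in rES and 54.2, 57.9 and 55.4 CPM in ESC (log2 difference 0.78 ± 0.11, adjusted p = 5.11e-05). Notum, an extracellular enzyme that inactivates WNT proteins, averaged 59.1 ± 4.47 CPM in rES and 39.2 ± 3.86 CPM in ESC (log2 difference 0.59 ± 0.12). All rES libraries lay above all ESC libraries for these 3 genes and for Lef1, which is on this list too. The members called lower were Bmp4 and Ccnd2, a cyclin of chromosome 6 whose log2 difference was -0.90 ± 0.22, or -0.59 scaled within the chromosome, and Tcf7, Lgr5, Cdx1 and T were not called.

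Genes of the LIF-STAT3 pathway were called about as often as all genes, with 3 of 15 higher and 2 lower (20% and 13.3%, beside 15.6% and 17.9% of all genes) and a median log2 difference of -0.03. Il6st, the shared receptor subunit gp130, had 194, 202 and 205 CPM in rES and 113, 114 and 114 CPM in ESC (log2 difference 0.82 ± 0.07, adjusted p = 1.93e-07). Lif, the ligand, averaged 13.03 ± 1.75 CPM in rES and 8.67 ± 1.21 CPM in ESC (log2 difference 0.59 ± 0.13), and Jak2, a kinase of cytokine receptors, fell by 0.40 ± 0.11. Stat3 itself averaged 129.8 ± 1.26 CPM in rES and 132 ± 1.61 CPM in ESC, and Stat3, Lifr and Socs3 were not called.

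Of 18 BMP-SMAD targets and related regulators, 8 were called lower and 1 higher (44.4% and 5.56%, beside 17.9% and 15.6% of all genes). The median log2 difference was -0.54, but the summed levels overlapped, at 294 to 299 CPM in rES and 290 to 303 CPM in ESC. Id3, an inhibitor of helix-loop-helix factors, had 6.71, 6.66 and 5.65 CPM in rES and 32.5, 35.7 and 35.6 CPM in ESC (log2 difference -2.45 ± 0.14, adjusted p = 1.3e-09). Id1 and Id2 fell, with log2 differences of -0.51 ± 0.16 and -0.57 ± 0.20. Tfap2a, an AP-2 factor, fell by 0.94 ± 0.17, and Bambi, a decoy receptor on chromosome 18, fell by 0.75 ± 0.10, or stood at -0.42 scaled within the chromosome. Tfap2c, the AP-2 factor of naive and germ cells, was the 1 member that rose, to 164 ± 2.14 CPM in rES, against 82.8 ± 5.02 CPM in ESC (log2 difference 0.98 ± 0.13).

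**Figure D4:**
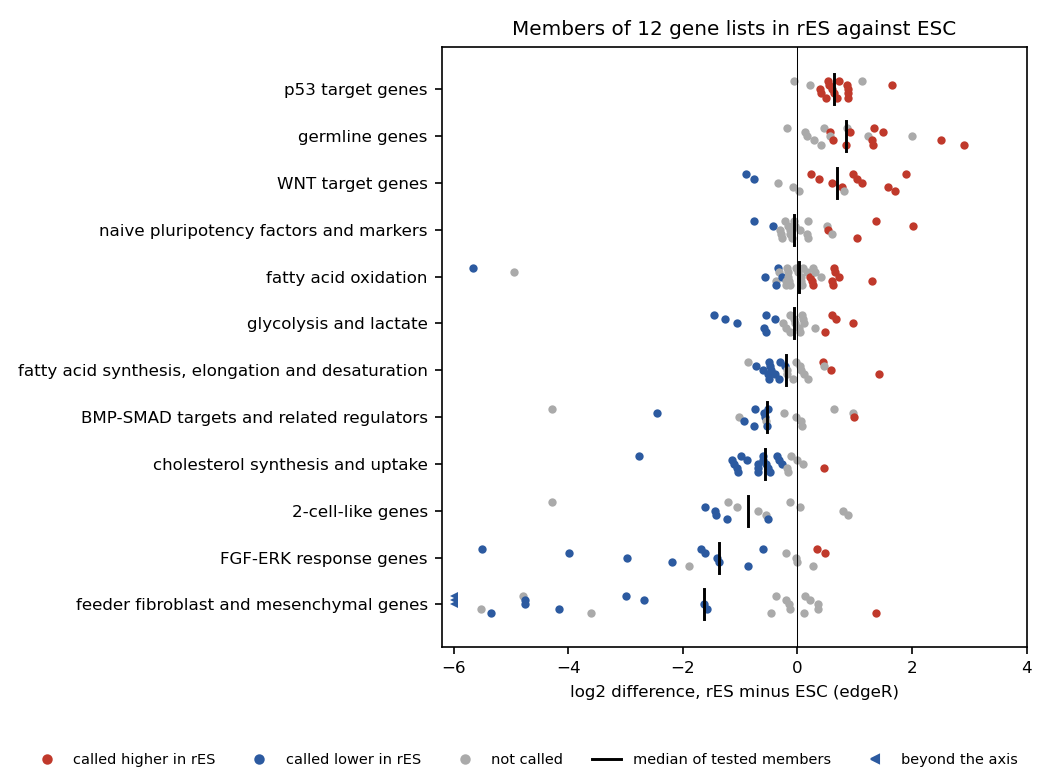
Log2 difference of rES minus ESC for each tested member of 12 gene lists, one point per gene, with a black line at the median of the tested members. Most points of the p53 target, germline and WNT target genes lie right of 0, and most of the cholesterol, FGF-ERK and fibroblast genes left of it. The 3 members beyond the left edge, at -6, are Dcn, Prrx1 and Col3a1.

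Of the 6 collagens on the fibroblast list 5 were lower in rES, as were several other matrix genes. Of 25 feeder fibroblast and mesenchymal genes, 11 were called lower and 1 higher (44% and 4%, beside 17.9% and 15.6% of all genes). The median log2 difference was -1.64. Col3a1, a fibrillar collagen chain, had 0.111, 0.115 and 0.122 CPM in rES, under the floor, and 17.1, 22.1 and 20.02 CPM in ESC. Col1a1, a chain of type I collagen, had 3.86, 1.98 and 2.92 CPM in rES and 68.6, 95.8 and 73.4 CPM in ESC (log2 difference -4.76 ± 0.25, adjusted p = 4.75e-10), and its partner chain Col1a2 had 1.38, 1.11 and 1.55 CPM in rES and 29.3, 41.0 and 39.2 CPM in ESC (log2 difference -4.76 ± 0.24). Lox, an enzyme that crosslinks collagen, had no count in any rES library and 14.3, 17.5 and 13.6 CPM in ESC, at least 79.4-fold lower in rES against the floor of 12 counts per library. Thbs1, a matrix glycoprotein, had 0.620, 0.742 and 0.444 CPM in rES and 15.1, 20.3 and 16.7 CPM in ESC (log2 difference -4.85 ± 0.17). No rES library came near an ESC library for any of these 5 genes.

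The list did not move as 1 block. Its summed level was 2929.6 to 3037 CPM in rES and 2657 to 2807 CPM in ESC, of which Fn1 (fibronectin) alone averaged 2608 CPM in rES and 2247 CPM in ESC. Vim (vimentin) averaged 249.9 CPM in rES and 231 CPM in ESC, and Fn1, Vim, Zeb1, Fbn1 and Pdgfrb were not called. Pdgfrb, on chromosome 18, stood at 0.46 (adjusted p = 0.0305) scaled within the chromosome. The fibroblast markers Dcn, Prrx1, Fap, Twist2 and S100a4 had no count in any rES library. In ESC they averaged 1.00, 0.364, 0.0873, 0.0505 and 0.0218 CPM, so the last 3 were under the floor there too. The 6 collagens of the list summed to 34.5 to 38.2 CPM in rES and 151 to 201 CPM in ESC, and Col5a1, the collagen that was not called, averaged 31.7 CPM in rES and 34.6 CPM in ESC, most of that sum in rES. In bulk RNA, fewer cells of a type and less RNA per cell cannot be told apart, and a part of feeder cells in the ESC libraries was not tested. Snai1, a repressor of epithelial genes, was the 1 member that rose, to 4.78 ± 0.149 CPM in rES, against 1.86 ± 0.618 CPM in ESC.

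Fatty acid oxidation was mixed. Of 34 tested genes, 9 were called higher and 5 lower (26.5% and 14.7%, beside 15.6% and 17.9% of all genes), with a median log2 difference of 0.03. Leaving out 1 library gave 5 to 9 higher, the lowest of them without rES library 1, and 3 to 4 lower, with 3 lower without rES library 2 or 3 or ESC library 2 or 3. Cpt1a, which makes the acylcarnitines that carry fatty acids into mitochondria, had 313, 296 and 290.5 CPM in rES and 194, 194 and 189 CPM in ESC (log2 difference 0.64 ± 0.10, adjusted p = 0.000121). It averaged 1.61, 24.3, 42.2 and 90.2 CPM in EpiSC, D3, D5 and D8, so rES had the highest mean of the series. Cpt2, the enzyme that reverses that step inside mitochondria, had 24.9, 31.1 and 27.7 CPM in rES and 26.6, 25.9 and 26.7 CPM in ESC, which overlap (adjusted p = 0.666). Etfb, an electron transfer flavoprotein subunit, averaged 95.0 ± 2.31 CPM in rES and 57.7 ± 2.34 CPM in ESC (log2 difference 0.72 ± 0.12), and Acadvl, the very-long-chain acyl-CoA dehydrogenase, averaged 16.4 ± 3.07 CPM in rES and 10.4 ± 1.04 CPM in ESC (log2 difference 0.65 ± 0.18). Acaa1b, a peroxisomal thiolase with the close paralog Acaa1a, averaged 7.24 ± 1.42 CPM in rES and 2.93 ± 1.26 CPM in ESC at adjusted p = 0.0413, and its reads may be shared with that copy. The Acaa1b call was lost without rES library 1 or 3 or ESC library 2 or 3 (adjusted p = 0.0929 to 0.138). Cpt1b, the muscle form of Cpt1a, was called lower but averaged 0.0153 CPM in rES, under the floor, and 0.897 CPM in ESC.

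Cholesterol genes fell together. Of 24 tested, 18 were called lower and 1 higher (75% and 4.17%, beside 17.9% and 15.6% of all genes), and 5 were not called. The median log2 difference was -0.57. Mvd, of the mevalonate pathway, had 32.7, 35.9 and 34.8 CPM in rES and 83.0, 76.7 and 67.5 CPM in ESC (log2 difference -1.14 ± 0.15, adjusted p = 1.37e-05). Msmo1, a sterol oxidase, averaged 124 ± 3.67 CPM in rES and 268 ± 16.3 CPM in ESC (log2 difference -1.11 ± 0.14). Both lie on chromosome 8, where scaling within the chromosome gave -0.69 for Mvd and -0.67 for Msmo1. Sc5d, a sterol desaturase, averaged 17.1 ± 1.80 CPM in rES and 35.6 ± 1.53 CPM in ESC (log2 difference -1.06 ± 0.12). The rES libraries lay below all ESC libraries for these 3 genes, and with that scaling the list had 18 called lower. Its regulator Srebf2 was not called. Ebp, a sterol isomerase, was the 1 member that rose, by 0.47 ± 0.13.

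Of 24 tested genes that make, elongate and desaturate fatty acids, 11 were called lower and 3 higher. These were 45.8% and 12.5%, beside 17.9% and 15.6% of all genes. Scd1, which makes monounsaturated fatty acids, averaged 529 ± 16.1 CPM in rES and 873 ± 36.3 CPM in ESC (log2 difference -0.72 ± 0.10), and Acaca, which makes malonyl-CoA, averaged 146 ± 0.993 CPM in rES and 223 ± 11.1 CPM in ESC (log2 difference -0.61 ± 0.07). Fasn, the synthase, averaged 1634 CPM in rES and 1659 CPM in ESC and was not called. Mlxipl, the glucose-responsive factor ChREBP, rose to 11.9 ± 0.230 CPM in rES, against 4.46 ± 0.255 CPM in ESC, and Elovl2, an elongase of polyunsaturated chains, rose to 16.2 ± 0.784 CPM in rES, against 10.8 ± 0.888 CPM in ESC. Of 37 glycerophospholipid and lipid droplet genes, 4 were called higher and 7 lower (10.8% and 18.9%, beside 15.6% and 17.9% of all genes). Agpat2, an acyltransferase of phosphatidic acid synthesis, rose by 0.81 ± 0.10. Pcyt1b, an enzyme of phosphatidylcholine synthesis, and the acyltransferases Lpcat4 and Agpat4 fell, with log2 differences of -0.78 ± 0.14, -0.68 ± 0.14 and -0.61 ± 0.11.

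Single glycolysis genes changed, with 4 of 23 called higher and 7 lower (17.4% and 30.4%, beside 15.6% and 17.9% of all genes). Scaled within chromosomes 6, 8 and 18, the list had 4 called higher and 4 lower, where 16.6% and 14.6% of all genes were, so the counts then lay near those of all genes. Ldha, the lactate dehydrogenase subunit that favours lactate, had 220.4, 217 and 212 CPM in rES and 442, 451 and 450.0 CPM in ESC (log2 difference -1.05 ± 0.08, adjusted p = 4.14e-08). Pdk1, the kinase that holds back pyruvate dehydrogenase, averaged 24.7 ± 1.39 CPM in rES and 59.2 ± 4.43 CPM in ESC (log2 difference -1.26 ± 0.09). EpiSC had 2162 CPM of Ldha and 127 CPM of Pdk1, above both groups. Hk1, a hexokinase, rose to 299.9 ± 4.68 CPM in rES, against 188 ± 10.96 CPM in ESC, and Pfkfb3, which makes the activator of phosphofructokinase, rose to 13.1 ± 1.37 CPM in rES, against 6.70 ± 0.127 CPM in ESC.

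Of 17 enzymes of choline, betaine and folate metabolism, 6 were called lower and 2 higher (35.3% and 11.8%, beside 17.9% and 15.6% of all genes). Mthfd2, the mitochondrial folate enzyme, lies on chromosome 6 and averaged 108 ± 3.17 CPM in rES and 195 ± 3.90 CPM in ESC (log2 difference -0.85 ± 0.07, or -0.54 scaled within the chromosome). Dmgdh and Bhmt, which use dimethylglycine and betaine, had no count in EpiSC. Dmgdh reached 70.6 ± 2.40 CPM in rES, against 107 ± 5.50 CPM in ESC (log2 difference -0.61 ± 0.15), and Bhmt reached 47.9 ± 1.66 CPM in rES, against 89.1 ± 3.90 CPM in ESC (log2 difference -0.90 ± 0.24). DESeq2 gave adjusted p = 0.0665 for Bhmt. Pipox, a peroxisomal sarcosine oxidase, fell by 0.86 ± 0.19.

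DNA methylation enzymes changed in single members. Of 12 tested, 2 were called higher and 3 lower (16.7% and 25%, beside 15.6% and 17.9% of all genes). Tet2, a methylcytosine oxidase, had 41.2, 51.4 and 56.0 CPM in rES and 114, 124 and 113 CPM in ESC (log2 difference -1.24 ± 0.26, adjusted p = 0.00121). Uhrf2, a relative of the maintenance factor Uhrf1, averaged 39.2 ± 0.987 CPM in rES and 23.8 ± 0.663 CPM in ESC (log2 difference 0.72 ± 0.06), and Dnmt3b rose as given above. Gadd45b, a stress-induced gene, fell by 0.47 ± 0.09. Dnmt1 and Uhrf1, which maintain methylation, the oxidase Tet1 and Dnmt3a were not called, with log2 differences of 0.05, -0.06, 0.01 and -0.05.

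Germline genes were higher in rES. Of 20 tested, 10 were called higher and 0 lower by edgeR (50% and 0%, beside 15.6% and 17.9% of all genes). DESeq2 called 11 higher and 0 lower, beside 3497 higher and 3175 lower over all genes. At an unadjusted p under 0.05 the counts were 12 higher and 0 lower, with no share of all genes given for that threshold. The median log2 difference was 0.85, and 17 had all rES libraries above all ESC libraries (26.4% of all genes did). The list summed to 2044 to 2083 CPM in rES and 1093 to 1181 CPM in ESC. Dazl, an RNA-binding protein of germ cells, had 720.4, 759 and 738 CPM in rES and 275, 271 and 328 CPM in ESC (log2 difference 1.34 ± 0.26, adjusted p = 0.000758), but DESeq2 gave adjusted p = 0.352. Tuba3b, a testis alpha-tubulin, had 26.5, 26.2 and 28.0 CPM in rES and 4.05, 3.86 and 2.84 CPM in ESC (log2 difference 2.91 ± 0.32, adjusted p = 1.09e-05). Its close copy Tuba3a averaged 294 ± 9.75 CPM in rES and 119.9 ± 1.996 CPM in ESC, and the split of reads between these copies is uncertain. Tex101, a surface glycoprotein of male germ cells, had 15.8, 16.2 and 17.3 CPM in rES and 3.47, 3.16 and 2.12 CPM in ESC (log2 difference 2.50 ± 0.50, adjusted p = 0.000858). Mael, a protein of the piRNA pathway, averaged 8.15 ± 0.983 CPM in rES and 3.28 ± 0.382 CPM in ESC (log2 difference 1.31 ± 0.37, adjusted p = 0.0177). The Mael call was lost without rES library 1 or ESC library 1 or 3 (adjusted p = 0.0558 to 0.0643). The libraries did not overlap for these 4 genes, each of which was under the floor in EpiSC.

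Many germline promoters are rich in CG and are kept silent by DNA methylation, so the sequence before the RefSeq start of the 4 named germline genes is shown, with each CG in capitals. The windows are the 250 bases before the RefSeq start on GRCm38.p6, read 5′ to 3′ on the gene's strand. They lie at chr6:145615713-145615962 for Tuba3b (plus strand), chr7:24672051-24672300 for Tex101 (minus strand), chr17:50293621-50293870 for Dazl (minus strand) and chr1:166238745-166238994 for Mael (minus strand). The GENCODE positions differ from those of RefSeq: of the 250 bases, 206 lie inside the GENCODE gene for Tuba3b and all 250 for Tex101 (24668007 to 24676675), but 16 for Dazl and 3 for Mael. The Tex101 window is therefore upstream by RefSeq only.
Tuba3b: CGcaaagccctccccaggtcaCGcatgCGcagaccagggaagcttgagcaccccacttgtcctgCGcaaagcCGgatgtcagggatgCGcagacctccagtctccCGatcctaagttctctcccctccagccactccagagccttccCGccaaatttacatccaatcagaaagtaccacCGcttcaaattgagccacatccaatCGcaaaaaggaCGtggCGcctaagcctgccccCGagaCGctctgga
Tex101: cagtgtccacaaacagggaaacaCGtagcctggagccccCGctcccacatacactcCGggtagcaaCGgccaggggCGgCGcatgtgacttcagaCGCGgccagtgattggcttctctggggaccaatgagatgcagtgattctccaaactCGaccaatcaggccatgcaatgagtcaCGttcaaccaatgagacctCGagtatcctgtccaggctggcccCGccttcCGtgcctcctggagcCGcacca
Dazl: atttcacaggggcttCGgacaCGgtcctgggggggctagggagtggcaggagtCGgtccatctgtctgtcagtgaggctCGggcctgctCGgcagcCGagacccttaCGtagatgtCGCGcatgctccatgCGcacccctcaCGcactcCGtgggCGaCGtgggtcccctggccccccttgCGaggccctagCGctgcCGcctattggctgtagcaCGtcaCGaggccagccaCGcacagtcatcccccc
Mael: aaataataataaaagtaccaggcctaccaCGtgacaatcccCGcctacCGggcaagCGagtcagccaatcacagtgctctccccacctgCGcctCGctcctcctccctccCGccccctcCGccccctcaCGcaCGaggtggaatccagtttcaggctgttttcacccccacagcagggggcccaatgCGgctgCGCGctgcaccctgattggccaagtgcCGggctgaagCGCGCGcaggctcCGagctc
The motif counted was CG, which reads the same on both strands. It occurs 14 times in the window of Tuba3b and 14 times in that of Tex101, and 29.4% of 32851 mouse windows of the same length hold as many. The window of Dazl holds 20 (17.9% of windows hold as many) and that of Mael holds 18 (21.7%). The median window holds 6, and 92.1% hold at least 1. Methylation was not measured here, and these counts describe sequence only.

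The largest rises of the comparison included more testis and oocyte genes. By rule the 12 largest, with at least 10 CPM in a group and no overlap between libraries, were Magea8, Ptprtos, Tuba3b, Pdzrn4, Atp12a, Scml2, Efhc2, Tex101, Magea5, Nlrp4c, Gas7 and Akr1cl. Magea8, a testis antigen, had 16.8, 14.6 and 15.3 CPM in rES and 1.57, 1.39 and 1.44 CPM in ESC (log2 difference 3.41 ± 0.23, adjusted p = 5.19e-07). Magea5 averaged 12.1 ± 0.945 CPM in rES and 2.17 ± 0.435 CPM in ESC, and since the Magea genes are close copies the split of reads between them is uncertain. Scml2, a germline Polycomb protein, had 31.1, 30.3 and 29.5 CPM in rES and 5.10, 4.55 and 5.28 CPM in ESC (log2 difference 2.60 ± 0.42). Nlrp4c, from a gene family expressed in oocytes, averaged 46.8 ± 2.95 CPM in rES and 8.39 ± 1.05 CPM in ESC (log2 difference 2.48 ± 0.28). Atp12a, a proton and potassium pump subunit, averaged 28.3 ± 3.81 CPM in rES and 4.42 ± 0.790 CPM in ESC (log2 difference 2.68 ± 0.27).

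The remaining members of the 12 were of other kinds. Gas7, a growth arrest gene, averaged 14.7 ± 1.36 CPM in rES and 2.98 ± 0.919 CPM in ESC. Akr1cl, from a family of similar aldo-keto reductases, averaged 17.4 ± 0.565 CPM in rES and 3.62 ± 0.213 CPM in ESC. Ptprtos, antisense to Ptprt by its name, averaged 14.2 ± 1.85 CPM in rES and 1.54 ± 0.236 CPM in ESC, and since the strand setting of the counting is not given, reads from the opposite strand cannot be told apart. Efhc2 and Pdzrn4 rose by 2.56 ± 0.30 and 2.81 ± 0.50.

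Magea8, Magea5, Scml2 and Efhc2 lie on the X chromosome, which held 84 genes called and at least 2-fold higher of 712 tested (11.8%, against 4.42% of all genes). Its median log2 difference was 0.06. Rhox13 and Rhox5, homeobox genes of the reproductive tract, and Fthl17c, a ferritin-like gene, were among the 84 and are named here after their values were seen. Rhox13 had 22.8, 26.4 and 26.6 CPM in rES and 8.94, 7.01 and 6.02 CPM in ESC, and Fthl17c had 18.1, 16.3 and 14.6 CPM in rES and 4.09, 3.82 and 3.69 CPM in ESC. Rhox5 had 25.6, 5.97 and 25.1 CPM in rES and 6.50, 6.30 and 5.78 CPM in ESC, so rES library 2 lay among the ESC libraries.

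Of 10 genes that tell X and Y complement, 5 were called higher, all of them Y-linked, and 0 lower by edgeR. These were 50% and 0%, beside 15.6% and 17.9% of all genes. DESeq2 called 6 higher and 0 lower, beside 3497 higher and 3175 lower over all genes. At an unadjusted p under 0.05 the counts were 6 higher and 0 lower, with no share of all genes given for that threshold. Leaving out 1 library gave 3 to 5 higher, with 3 without rES library 1 or 2 or ESC library 2. Y-linked transcripts were present in both groups. Of all 12 genes tested on the Y chromosome, 8 were called higher and 0 lower (66.7% and 0%), with a median log2 difference of 1.39. Uba1y, a Y-linked ubiquitin-activating enzyme, had 139.7, 121 and 131 CPM in rES and 59.7, 59.1 and 59.1 CPM in ESC (log2 difference 1.14 ± 0.20), but 0.338 CPM in EpiSC. Kdm5d, a histone demethylase, averaged 7.50 ± 0.642 CPM in rES and 3.73 ± 0.966 CPM in ESC, where EpiSC had 38.0 CPM. Eif2s3y, a translation initiation factor, averaged 74.4 ± 6.89 CPM in rES and 57.4 ± 2.27 CPM in ESC, and Usp9y, a deubiquitinase, averaged 6.04 ± 1.12 CPM in rES and 2.63 ± 0.222 CPM in ESC. The Usp9y call was lost without rES library 1 or 2 or any ESC library (adjusted p = 0.0683 to 0.107). Xist, the RNA that coats an inactive X, averaged 0.787 ± 0.0677 CPM in rES and 1.46 ± 0.906 CPM in ESC and was not called.

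Zscan4 genes, which mark the rare cells that resemble the embryo at the 2-cell stage, were lower in rES. Of 14 tested genes of that state, 5 were called lower and 0 higher by edgeR (35.7% and 0%, beside 17.9% and 15.6% of all genes). The median log2 difference was -0.87. DESeq2 called 5 lower and 1 higher, beside 3175 lower and 3497 higher over all genes. At an unadjusted p under 0.05 the counts were 7 lower and 0 higher, with no share of all genes given for that threshold. Zscan4f had 5.13, 5.67 and 6.84 CPM in rES and 17.2, 15.5 and 14.8 CPM in ESC (log2 difference -1.43 ± 0.30, adjusted p = 0.00219). Zscan4a, Zscan4b and Zscan4c fell, with log2 differences of -1.45 ± 0.39, -1.62 ± 0.36 and -1.24 ± 0.31. These copies are nearly identical, so the split between them is uncertain, and the 5 tested Zscan4 genes together summed to 21.6 to 24.8 CPM in rES and 54.7 to 61.8 CPM in ESC.

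Imprinted genes diverged in both directions. Of 49 tested, 15 were called higher and 16 lower (30.6% and 32.7%, beside 15.6% and 17.9% of all genes). Of these, 9 and 8 differed by at least 2-fold, a size reached by 4.42% and 4.16% of all genes. Peg10, a retrotransposon-derived gene needed in the placenta, had 18.3, 17.4 and 20.1 CPM in rES and 286, 311 and 306 CPM in ESC (log2 difference -4.02 ± 0.15, adjusted p = 8.89e-12). Sgce, epsilon-sarcoglycan, had 0.699, 0.379 and 0.551 CPM in rES and 12.4, 10.3 and 9.78 CPM in ESC (log2 difference -4.31 ± 0.16, adjusted p = 1.2e-11). Both are normally expressed from the paternal copy and start next to each other on chromosome 6, Sgce on the minus strand at 4674350 to 4747207 and Peg10 on the plus strand at 4747306 to 4760517 (GRCm38). Peg10 averaged 141, 8004, 16149 and 14608 CPM in EpiSC, D3, D5 and D8, and Sgce averaged 21.8, 25.4, 79.0 and 99.3 CPM. The rES mean was thus the lowest of the 6 groups for both genes.

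Neighbours of Peg10, picked after their values were seen, were lower too. Ppp1r9a, an actin-binding scaffold on the imprinted list, had 5.43, 4.47 and 5.77 CPM in rES and 19.2, 17.3 and 20.6 CPM in ESC (log2 difference -1.86 ± 0.12). Pon2, a paraoxonase, averaged 1.02 ± 0.451 CPM in rES and 4.74 ± 0.167 CPM in ESC (log2 difference -2.21 ± 0.22). Pon3, its relative, averaged 1.13 ± 0.257 CPM in rES and 2.27 ± 0.713 CPM in ESC, a call that ended when scaled within the chromosome (log2 difference -1.01, or -0.70 at adjusted p = 0.057). Col1a2, described above, lies at 4504814 to 4541544 on the same chromosome. Casd1, a sialic acid acetyltransferase, averaged 13.7 ± 1.37 CPM in rES and 16.96 ± 0.963 CPM in ESC and was not called.

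Other imprinted loci moved singly. Igf2, a fetal growth factor expressed from the paternal copy, had 1.59, 1.88 and 1.55 CPM in rES and 8.86, 10.02 and 7.02 CPM in ESC (log2 difference -2.37 ± 0.16, adjusted p = 1.05e-08). H19, its maternally expressed neighbour, averaged 4.85 ± 0.411 CPM in rES and 2.38 ± 0.697 CPM in ESC (log2 difference 1.03 ± 0.22). Meg3, a maternally expressed RNA, had 1.57, 2.28 and 2.37 CPM in rES and 7.30, 8.83 and 8.58 CPM in ESC (log2 difference -1.99 ± 0.27, adjusted p = 2.47e-05), where EpiSC averaged 71.5 CPM. Rian and Mirg, of the same cluster, fell, with log2 differences of -1.06 ± 0.22 and -0.97 ± 0.26. Peg3 and Usp29, paternally expressed neighbours, rose by 1.05 ± 0.08 and 1.62 ± 0.15, and Atp10a, a lipid flippase gene, rose by 1.89 ± 0.18. Airn, an antisense RNA called higher, averaged 0.0322 CPM in rES and 0 CPM in ESC and was under the floor in both groups. Allelic reads were not measured.

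Targets of p53 were higher in rES. Of 17 tested, 14 were called higher and 0 lower by edgeR (82.4% and 0%, beside 15.6% and 17.9% of all genes). The median log2 difference was 0.63, and 15 had all rES libraries above all ESC libraries (26.4% of all genes did). DESeq2 called 14 higher and 0 lower, beside 3497 higher and 3175 lower over all genes. At an unadjusted p under 0.05 the counts were 14 and 0, with no share of all genes given for that threshold. Bbc3, the death protein PUMA, had 33.2, 32.9 and 32.2 CPM in rES and 11.2, 11.8 and 8.39 CPM in ESC (log2 difference 1.65 ± 0.24, adjusted p = 3.87e-05). Cdkn1a, the cell cycle inhibitor p21, had 277, 274 and 275 CPM in rES and 152, 152 and 145 CPM in ESC (log2 difference 0.88 ± 0.10, adjusted p = 4.28e-06). Both groups were tight, and no libraries overlapped. Trp53inp1, a stress-induced partner of p53, averaged 590.4 ± 18.9 CPM in rES and 319.8 ± 6.72 CPM in ESC, and Perp, a membrane protein of cell death, averaged 17.2 ± 2.45 CPM in rES and 9.29 ± 0.483 CPM in ESC. Mdm2, the ligase that degrades p53, and Trp53 itself rose by 0.63 ± 0.07 and 0.41 ± 0.12. Pmaip1, Gtse1 and Fas were not called. The sum of the list was 3589 to 3645 CPM in rES and 2343 to 2360.0 CPM in ESC.

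Cell cycle genes differed by small steps. Of 28 tested, 4 were called higher and 8 lower (14.3% and 28.6%, beside 15.6% and 17.9% of all genes), none by 2-fold, with a median log2 difference of -0.11. Leaving out any 1 library gave 2 higher. Mki67, the antigen Ki-67, had 117, 135 and 145 CPM in rES and 203, 206 and 209 CPM in ESC (log2 difference -0.64 ± 0.12). Ccne2, a cyclin of S phase entry, fell by 0.72 ± 0.14, and Bub1, a mitotic checkpoint kinase, fell by 0.53 ± 0.12. The mitotic kinase Plk1 and the kinase Cdk2 rose by 0.47 ± 0.17 and 0.35 ± 0.09.

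Of 17 genes of the integrated stress response and serine synthesis, 7 were called lower and 2 higher (41.2% and 11.8%). Of all genes, 17.9% and 15.6% were. Without rES library 2 the list had 4 called higher. Atf3, a stress-induced factor, averaged 1.86 ± 0.656 CPM in rES and 8.97 ± 0.812 CPM in ESC (log2 difference -2.27 ± 0.19), and Slc7a11, the cystine transporter, averaged 3.66 ± 0.778 CPM in rES and 9.30 ± 0.866 CPM in ESC (log2 difference -1.34 ± 0.18). Slc7a5, a transporter of large amino acids, lies on chromosome 8 and averaged 448 ± 14.6 CPM in rES and 956 ± 64.7 CPM in ESC (log2 difference -1.09 ± 0.09, or -0.65 scaled within the chromosome). Ddit4, an inhibitor of mTORC1, rose to 82.0 ± 3.52 CPM in rES, against 30.4 ± 3.15 CPM in ESC (log2 difference 1.43 ± 0.14).

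Summed levels of the extraembryonic lists were well below those of D8 in both groups. Both groups were below the D8 mean for 14 of 17 tested primitive and visceral endoderm genes, the exceptions being Apoe, Hnf4a and Afp. The same held for 15 of 17 trophoblast genes, the exceptions being Eomes and Cdx2, and for 8184 of all 17545 genes tested. Of the endoderm genes, 6 were called higher and 4 lower (35.3% and 23.5%, beside 15.6% and 17.9% of all genes). Gata6, the factor that starts primitive endoderm, had 6.21, 6.33 and 6.37 CPM in rES and 1.12, 1.90 and 1.48 CPM in ESC (log2 difference 2.07 ± 0.29), while Gata4 was not called. Sparc, a matrix protein, fell by 0.54 ± 0.07. Col4a1 and Col4a2, basement membrane collagens of chromosome 8, fell, with log2 differences of -0.66 ± 0.11 and -0.73 ± 0.14, but stood at -0.22 (adjusted p = 0.129) and -0.28 (adjusted p = 0.126) when scaled within the chromosome. The list summed to 532 to 547 CPM in rES and 550.1 to 554 CPM in ESC, beside 2695 to 3138 CPM at D8. Of the trophoblast genes, 6 were called higher and 2 lower (35.3% and 11.8%, beside 15.6% and 17.9% of all genes). Of those 6, Tfap2c is given above and Krt7, Ascl2, Cdx2, Wnt7b and Syna averaged 1.13, 2.56, 2.80, 2.02 and 0.198 CPM in rES. The trophoblast list summed to 182 to 188 CPM in rES and 105 to 111 CPM in ESC, beside 1204 to 1589 CPM at D8.

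Of 19 tested mesoderm and primitive streak genes, 1 was called higher and 2 lower (5.26% and 10.5%, beside 15.6% and 17.9% of all genes). Eomes, a T-box factor of the streak and trophoblast, averaged 9.06 ± 0.512 CPM in rES and 17.2 ± 1.29 CPM in ESC (log2 difference -0.92 ± 0.24). Of 13 tested neural progenitor genes 1 rose, Sox3, and 2 fell (7.69% and 15.4%, beside 15.6% and 17.9% of all genes). The falls had log2 differences of -0.54 ± 0.15 for Nes and -1.22 ± 0.32 for Sox1. Sox1, a neural HMG box factor on chromosome 8, stood at -0.77 (adjusted p = 0.0692) when scaled within it.

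Krt8, Krt18 and Krt19, keratins of simple epithelia, fell, while Krt7 rose. Krt8 had 7.88, 7.39 and 8.31 CPM in rES and 35.8, 34.0 and 35.9 CPM in ESC (log2 difference -2.16 ± 0.11, adjusted p = 2.1e-10), and its partner Krt18 fell by 1.44 ± 0.13. Krt19 averaged 0.341 ± 0.227 CPM in rES and 0.708 ± 0.111 CPM in ESC, and Krt7 averaged 1.13 ± 0.454 CPM in rES and 0.405 ± 0.129 CPM in ESC. Krt8 averaged 122, 1360.3, 2452 and 2174 CPM in EpiSC, D3, D5 and D8. Of the 15 epithelial genes, 5 were called higher and 6 lower (33.3% and 40%, beside 15.6% and 17.9% of all genes). With 1 library left out, 3 to 6 were called higher (3 without rES library 1 or 2 or ESC library 1 or 3). Epcam, an adhesion molecule of stem cells and epithelia, and the junction protein Ocln rose by 0.66 ± 0.06 and 0.52 ± 0.11, and Cldn4, a tight junction claudin, fell by 0.89 ± 0.20.

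Of 26 interferon-induced and MHC class I genes, 5 were called higher and 6 lower (19.2% and 23.1%, beside 15.6% and 17.9% of all genes). Without ESC library 1 or 3, 3 were called higher. A 2-fold difference was reached by 3 of the rises and 2 of the falls (4.42% and 4.16% of all genes). The members named next, taken with a mean of at least 5 CPM, are all falls, so they do not stand for the list. Ddx58, the RNA sensor RIG-I, averaged 13.6 ± 1.14 CPM in rES and 26.3 ± 1.45 CPM in ESC (log2 difference -0.95 ± 0.13), and B2m, the light chain of MHC class I, averaged 11.8 ± 0.882 CPM in rES and 18.7 ± 0.926 CPM in ESC (log2 difference -0.66 ± 0.11). The antiviral membrane protein Ifitm3 fell by 0.55 ± 0.14. Bst2, the antiviral protein tetherin, fell by 0.41 ± 0.11 but lies on chromosome 8, and its log2 difference was 0.03 when scaled within it. Of 34 Hox genes, 5 were called lower and 1 higher (14.7% and 2.94%, beside 17.9% and 15.6% of all genes). Hoxd8, Hoxd9 and Hoxa10, body axis factors, fell, with log2 differences of -2.21 ± 0.53, -1.18 ± 0.27 and -1.16 ± 0.22.

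Where the differing genes had stood on the way was read from EpiSC, D3, D5 and D8, which share no library with rES or ESC. Of the 776 genes at least 2-fold higher in rES, 491 (63.3%) were called higher at D8 than in EpiSC, where 42.4% of all genes were, and 140 of the 776 were called lower, where 34.5% of all genes were. Among these 4 groups their mean was highest at D8 for 46.3% (29.1% of all genes) and highest in EpiSC for 16.4% (31.9% of all genes). Of the 730 genes at least 2-fold lower in rES, 43.2% were called higher and 39.0% lower at D8 than in EpiSC, and 34.7% had their highest mean in EpiSC. Under the floor in all 4 groups were 13 genes of the 776 and 9 of the 730, beside 520 of all genes tested. These shares are descriptions, given with no test.

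Single genes show different histories. Magea8 and Magea5 had no count in EpiSC, D3 and D5, averaged 4.73 and 3.41 CPM at D8 and were highest in rES. Tuba3b averaged 0, 0, 0.0555 and 4.06 CPM in EpiSC, D3, D5 and D8. Col3a1 and Col1a1, by contrast, averaged 255 and 605 CPM at D8, far above both groups. Akr1b3, an aldose reductase with similar family members, averaged 49.5, 14.7, 10.4 and 16.7 CPM in EpiSC, D3, D5 and D8. It averaged 7.85 ± 3.24 CPM in rES, against 169.5 ± 21.7 CPM in ESC (log2 difference -4.44 ± 1.06, adjusted p = 0.00347), so the ESC mean stood above all groups of the conversion. Ipp, a kelch protein, did likewise, with 9.67 ± 1.17 CPM in rES and 89.7 ± 8.996 CPM in ESC (log2 difference -3.21 ± 0.15), and 18.4, 10.01, 16.5 and 10.9 CPM in EpiSC, D3, D5 and D8.

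**Figure D5:**
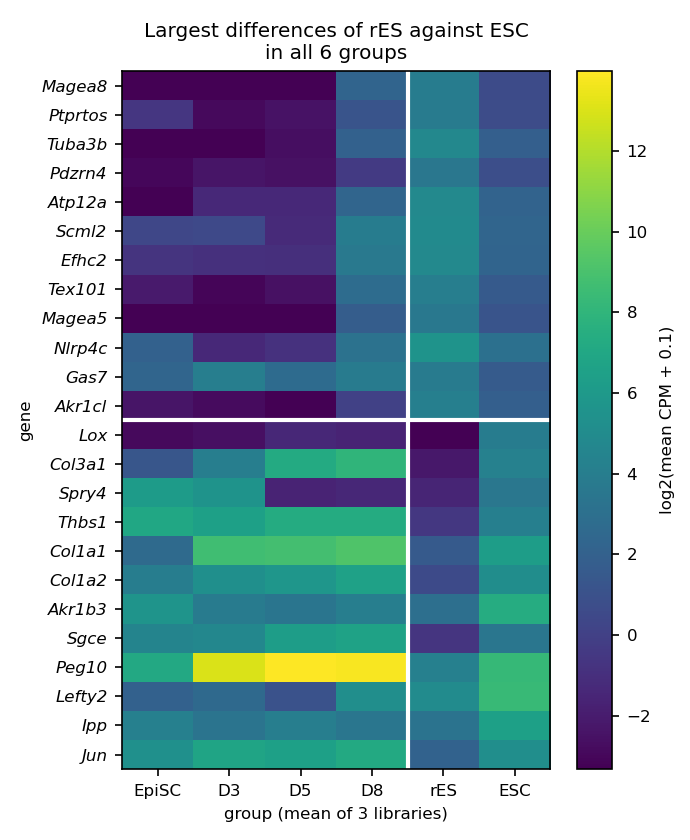
Mean level of the 12 largest rises (upper block) and 12 largest falls (lower block) of rES against ESC in all 6 groups, as log2(mean CPM + 0.1) by colour, with the groups of the conversion to the left of rES and ESC. In the upper block the colours of D5 are mostly dark and those of rES brighter than those of ESC. In the lower block Peg10 is brightest at D5 and D8, and Akr1b3, Ipp and Lox are brightest in ESC.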

How the data were processed

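Libraries were made from total RNA depleted of ribosomal RNA and sequenced as paired reads, per the labels' protocols. The authors trimmed reads with Trim Galore and used HISAT2 and the mm10 build, per the submitters' processing notes. For the counting program, its annotation and its use of strand, the sources name nothing (not given in the sources used here). The deposited values were treated as estimated counts per gene symbol, as the authors deposited them: they are whole numbers in which low values bunch at multiples of 4, so 12 deposited counts served as the floor of detection and floors and intervals cover counting error only. Positions come from GENCODE annotation of GRCm38 and promoters from RefSeq.

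All 18 libraries were fitted together with edgeR 4.0.16 (R 4.3.3): filterByExpr, TMM factors, quasi-likelihood F test, Benjamini-Hochberg adjustment over 17545 genes, threshold 0.05. Sharing 1 fit gives the comparison the spread of all 6 groups. CPM use the TMM library sizes. Alternatives were RLE factors, no low count filter, counts divided by 4, a replicate block, the 6 libraries alone, DESeq2 1.42.0 and leaving out each library. A simulation was also run (17152 genes), in which 67 genes were given a 2-fold change, and 64.2% of them were called. Smaller changes, of 1.5 times, were set in 64 genes and called in 35.9%. For the 62 genes set to differ by 4 times the share was 66.1%. False calls made up 3.6% of the 111 calls. Far fewer genes differed there than the 5877 called in the real libraries, so these rates do not carry over to the real calls. With 3 against 3 libraries an exact permutation test cannot go below p = 0.1, so none was run for single genes.

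Genes named were 12 fixed genes, the 12 largest called differences each way with a mean of at least 10 CPM and no overlap, and up to 4 called members per list with a mean of at least 5 CPM, plus members given by value. A few list members that the counts include are not reported here by name. The members and lists were chosen with earlier results of these data known.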

Additional observations from a re-analysis of the deposited data

How the results depend on the processing

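The number of genes called stayed within 1.5 times under every alternative run, but the balance turned. Against 2736 higher and 3141 lower calls, RLE scaling gave 3103 and 2835, DESeq2 3497 and 3175, the 6 libraries alone 3932 and 3916, and scaling within chromosomes 6, 8 and 18 gave 2915 and 2557. Leaving out 1 library gave 2193 to 2321 higher and 2578 to 2741 lower calls. Same-numbered libraries did not deviate together (residual correlations 0.0144, 0.00895 and 0.00699), so the numbers were not used as pairs, and a replicate block gave 2611 higher and 3010 lower calls. Over genes with a mean of at least 1 CPM the chromosome medians were -0.34 for chromosome 6 and -0.36 for chromosome 18. Without 1 library they ran from -0.294 to -0.258 (chromosome 6), -0.423 to -0.401 (chromosome 8) and -0.329 to -0.295 (chromosome 18). Reversed values were Cpt2 at -0.004 without rES replicate 2 (up to 0.157 without 1 library), Fgf5 at -0.093 without ESC replicate 1 (up to 2.272), and Zfp42 at 0.18 and Bst2 at 0.03 scaled within the chromosome. Of 128 genes tested that the naming rule took, 121 were called and 107 stayed called under every alternative. Nanog was lost with RLE, with the block (adjusted p = 0.0552) and without any 1 library. Fitting rES and ESC alone called more genes, 25.9% of all genes in that fit higher and 25.8% lower. It moved further list counts by over 1.5 times, among them the following. Germline genes had 17 of 20 higher, LIF-STAT3 genes 6 of 15 higher and 5 lower, and primed markers 6 of 17 lower. Lower were 14 of 28 cell cycle genes, 8 of 14 2-cell genes and 10 of 15 choline enzymes. Fatty acid oxidation had 10 of 32 lower, glycerophospholipid genes 11 of 36 lower, and Hox genes 3 of 31 higher and 10 lower. Higher were 5 of 24 fatty acid synthesis genes, 3 of 22 fibroblast genes and 3 of 9 neural genes. The cause was not tested.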

Other observations

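Some genes high in ESC fell in rES without belonging to a list, and were picked after their values were seen. Mt1 and Mt2, metallothioneins of chromosome 8 that bind zinc and copper, averaged 192 ± 9.87 CPM in rES and 839 ± 23.9 CPM in ESC and, for Mt2, 289.9 ± 5.21 CPM in rES and 888 ± 58.3 CPM in ESC (Mt1 log2 difference -2.13 ± 0.15, Mt2 log2 difference -1.62 ± 0.10). Ccn1 and Ccn2, secreted matrix-associated proteins, fell as well: Ccn1 averaged 20.2 ± 1.45 CPM in rES and 131 ± 19.5 CPM in ESC (log2 difference -2.69 ± 0.12), and Ccn2 averaged 44.7 ± 0.892 CPM in rES and 169 ± 5.99 CPM in ESC (log2 difference -1.92 ± 0.09). Emp1, an epithelial membrane protein, averaged 18.4 ± 0.618 CPM in rES and 88.5 ± 3.19 CPM in ESC. Rn45s, the ribosomal RNA precursor that the depletion removes in part, averaged 879.6 ± 194 CPM in rES and 2522 ± 177 CPM in ESC. The measured level of that RNA thus differed between the groups. The part of the depletion in this difference was not tested, nor was the part of Rn45s in other results.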
